A study of Mus musculus with 4 samples.

Results

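The airway secretory genes Scgb1a1, Scgb3a2, Cyp2f2, Cbr2, Scgb3a1, Bpifa1, Reg3g and Muc5b, which mark the club and other secretory cells of the airway lining, were followed in lung metastases of the mouse breast cancer line 4T1. They were chosen by symbol, and the 8 are all present among the 56748 genes counted. Each was read in 4 bulk RNA-Seq libraries, 2 from the saline group and 2 from the cmLumiOpto/PARPi group. The question put to these data is whether the airway secretory transcripts carried along with the tumour differ in level or in make-up between the groups.

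All mice were BALB/cJ females that received firefly luciferase-tagged 4T1 cells by the tail vein at 7 weeks of age. They were treated once metastasis was visible by imaging. The control group is named saline in the titles of the samples and in the study's methods, and PBS control in their treatment field. The treated group received cmLumiOpto, a light-driven gene therapy that acts on the inner mitochondrial membrane, delivered by an exosome-associated AAV tagged with a CD276 antibody together with the luciferase substrate ViviRen, and the PARP inhibitor olaparib. The methods place a cfos promoter before the therapeutic gene. Neither agent was sequenced alone here, so the part of each cannot be told apart. The labels describe the material as harvested tumour cells, whereas the methods describe dissociated lung tissue that held metastases. They do not tell whether the 2 libraries of a group came from separate mice, so p-values measure the spread between these libraries only.

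Club cells are the dome-shaped secretory cells of the small airways, which secrete protective proteins, oxidise inhaled chemicals and renew the airway lining after injury. Nearer the trachea, secretory cells turn more to mucins and to proteins that bind microbes. Both belong to the lining of the lung and not to the mammary gland. In a bulk library, more cells of a type and more RNA per cell cannot be told apart.

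The libraries held between 15263375 and 16755228 counts, and 15167 genes passed the filter on low counts. No gene passed an adjusted p of 0.05 in edgeR's quasi-likelihood test (0% of genes tested), although 3221 had an unadjusted p below that value, and DESeq2 called 981 of the 13402 genes it tested. Across all genes tested the median log2 fold change was 0.02, and it differed with gene length, from 0.31 among the shortest 20% of genes (up to 2093 bases) to -0.27 among the longest 20%. Of the 8 secretory genes, 6 are of that short kind, and offsets for gene length left the log2 fold changes of the 7 tested at 1.90 to 5.96. Transcripts of Krt8 and Krt18, keratins that 4T1 cells and lung epithelium share, were abundant in every library (998 to 1640 CPM for Krt8 and 740 to 1261 CPM for Krt18). CPM are counts scaled to a common library total with TMM factors.

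The 8 secretory genes together took 0.132% of all counts in saline 1 (95% Wilson interval 0.13 to 0.134%) and 0.0104% in saline 2 (0.00985 to 0.0109%). They took 0.659% in treated 1 (0.655 to 0.663%) and 0.351% in treated 2 (0.348 to 0.353%). Both treated libraries thus lay above both saline libraries, and the saline pair was spread more widely than the treated pair. These intervals cover counting error only. Each of the 8 genes on its own also stood higher in both treated libraries than in both saline libraries, including 7 of the 7 that passed the filter on low counts, where 27.4% of all genes tested had the same arrangement. Of those 7, 6 had an unadjusted p under 0.05 with the treated group higher, against 9.21% of genes tested, and 0 had an adjusted p under 0.05 in edgeR's quasi-likelihood test. DESeq2 called 4 of the 7, namely Scgb3a1, Scgb3a2, Bpifa1 and Muc5b, against 7.32% of all genes it tested. Muc5b entered the test only through its treated libraries, so its difference was partly fixed by the filter. Reg3g was not tested because it passed the filter's level of 0.614 CPM in a single library.

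**Figure D1:**
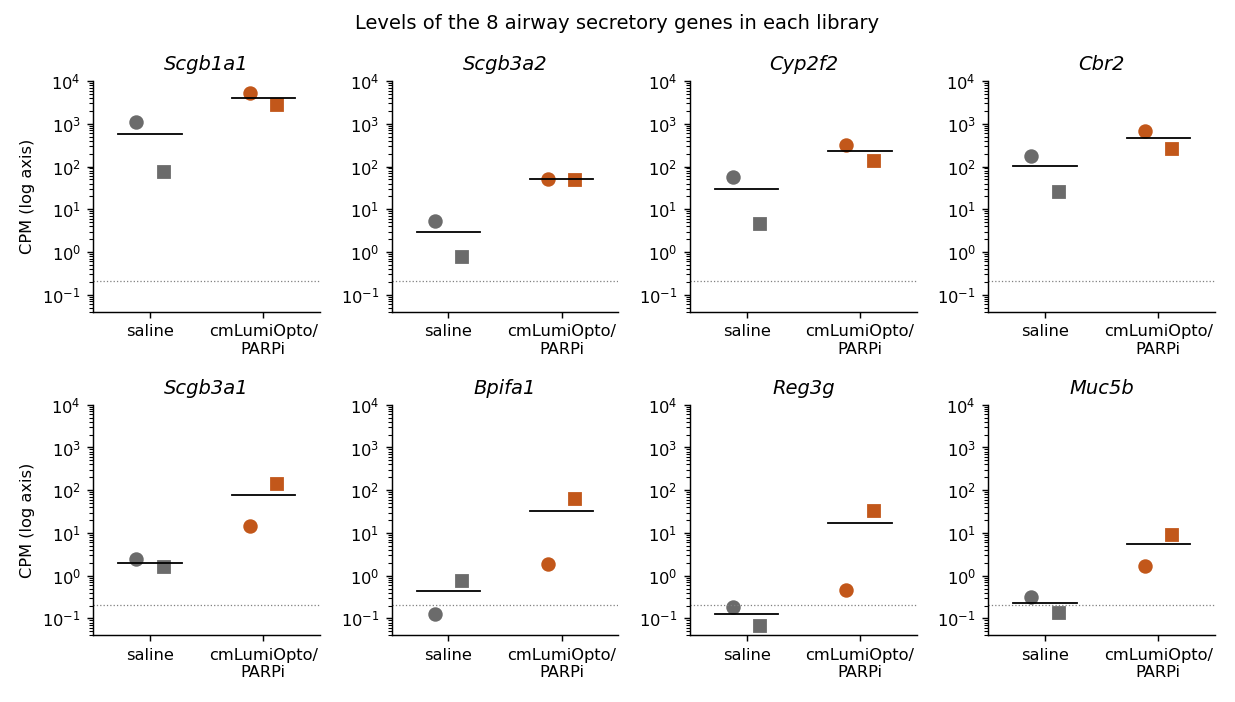
CPM of each of the 8 genes (log axis) in the saline and cmLumiOpto/PARPi libraries, with circles for library 1 and squares for library 2 of each group, bars for group means and a dotted line at the level of 3 counts in saline 2 (0.204 CPM). All 8 genes are higher in both treated libraries, but in the upper panels treated 1 is at or above treated 2 and in the lower panels treated 2 is above treated 1.

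Scgb1a1 encodes the club cell secretory protein, the main product of the club cell, and lies on chromosome 19 (chr19:9061000-9065322, minus strand, ENSMUSG00000024653). Its level was 1088 CPM in saline 1, 74.7 CPM in saline 2, 5305 CPM in treated 1 and 2794 CPM in treated 2. The groups did not overlap, the lower treated library being 2.57-fold above the higher saline library. Within the saline group, however, library 1 was 14.6-fold above library 2, and within the treated group library 1 was 1.90-fold above library 2. Group means were 581 ± 717 CPM for saline and 4049 ± 1775 CPM for treated (SD, n = 2). The log2 fold change was 2.80 with a standard error of 1.13 (Benjamini-Hochberg adjusted p = 0.235 in edgeR's quasi-likelihood test). Ranked by CPM among all genes, Scgb1a1 stood at 6 and 15 in the treated libraries and at 76 and 3288 in the saline libraries. Of all genes tested, 0.6% had a higher fold change. Leaving out saline 1 moved the log2 fold change of Scgb1a1 to 5.76, and leaving out saline 2 moved it to 1.90.

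Cyp2f2, the cytochrome P450 by which mouse club cells oxidise naphthalene, lies on chromosome 7 (chr7:26819334-26833085, plus strand, ENSMUSG00000052974). It measured 55.4 CPM in saline 1, 4.50 CPM in saline 2, 323 CPM in treated 1 and 132 CPM in treated 2. The order of the libraries was that of Scgb1a1, with saline 1 again 12.3-fold above saline 2 and treated 1 2.44-fold above treated 2. Its log2 fold change was 2.92 with a standard error of 1.06 (adjusted p = 0.205 in edgeR's quasi-likelihood test). It was 5.66 without saline 1, 2.04 without saline 2 and 2.13 without treated 1. The non-coding gene Gm15883 overlaps Cyp2f2 on the other strand, but had at most 9 counts in any library.

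Cbr2 encodes a carbonyl reductase of the lung that is abundant in club cells, and lies on chromosome 11 (chr11:120620315-120622940, minus strand, ENSMUSG00000025150). It had 180 CPM in saline 1, 25.2 CPM in saline 2, 662 CPM in treated 1 and 258 CPM in treated 2. The gap between the groups was the narrowest of the 8 genes, with the lower treated library 1.44-fold above the higher saline library. The log2 fold change of 2.17 had a standard error of 0.91 (adjusted p = 0.246 in edgeR's quasi-likelihood test). It was 4.19 without saline 1, 1.36 without saline 2 and 1.33 without treated 1. Among the tested genes of the set, Cbr2 alone did not pass an unadjusted threshold of 0.05.

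Scgb3a2 encodes a secretoglobin of the small airways that carries surfactant lipids and acts as a growth factor in the lung (chr18:43897354-43900464, plus strand, ENSMUSG00000038791). It measured 5.21 CPM in saline 1, 0.750 CPM in saline 2, 50.4 CPM in treated 1 and 49.6 CPM in treated 2. The treated libraries were thus alike, whereas saline 1 was 6.94-fold above saline 2. The means were 2.98 ± 3.15 CPM and 50.01 ± 0.603 CPM (SD, n = 2), and the lower treated library was 9.53-fold above the higher saline library, the widest gap of the 8. Its log2 fold change was 4.05 with a standard error of 0.72 (adjusted p = 0.138 in edgeR's quasi-likelihood test). Without saline 1 it was 6.04 (adjusted p = 0.0196 in edgeR), without saline 2 it was 3.26, and leaving out either treated library left it at 4.04 and 4.06.

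The other 4 genes are grouped here as genes of the larger airways, although Reg3g is not particular to them. Scgb3a1, a secretoglobin of the upper airways (chr11:49554437-49555945, plus strand, ENSMUSG00000064057), measured 2.45 CPM in saline 1, 1.57 CPM in saline 2, 14.3 CPM in treated 1 and 143 CPM in treated 2. Here the saline libraries lay close to each other and treated 2 was 9.94-fold above treated 1. The log2 fold change was 5.28 with a standard error of 1.16 (adjusted p = 0.138 in edgeR's quasi-likelihood test), and 0.0396% of genes tested had a higher one. Without treated 2 it was 2.82, and without treated 1 it was 6.14 (adjusted p = 0.0127 in edgeR).

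Bpifa1 encodes a surfactant-like protein of the upper airways that binds lipids and bacteria (chr2:153984800-153991139, plus strand, ENSMUSG00000027483). It had 0.125 CPM (2 counts) in saline 1, 0.750 CPM (11 counts) in saline 2, 1.84 CPM (32 counts) in treated 1 and 63.1 CPM (1048 counts) in treated 2. Nearly all of its treated signal came from treated 2, which was 34.2-fold above treated 1. Its log2 fold change of 6.22 was the highest of the 7 tested genes and also had the largest standard error, 1.82 (adjusted p = 0.164 in edgeR's quasi-likelihood test). Without treated 2 the log2 fold change was 2.07, without treated 1 it was 7.18, without saline 1 it was 5.42 and without saline 2 it was 7.93.

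Reg3g, a C-type lectin that kills Gram-positive bacteria and is induced in inflamed epithelia (chr6:78443252-78445855, minus strand, ENSMUSG00000030017), had 3 and 1 counts in the saline libraries, 8 counts in treated 1 and 554 counts in treated 2. Treated 2, at 33.3 CPM, was 72.4-fold above treated 1, at 0.461 CPM. Over both libraries of a group it had 4 counts against 562, a ratio of 126.6 per count sequenced (exact 95% interval 49.2 to 466, counting error only). That ratio rests on 1 library.

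Muc5b, the gel-forming mucin by which airways are cleared (chr7:141392807-141426821, plus strand, ENSMUSG00000066108), had 5 and 2 counts in the saline libraries, 30 counts in treated 1 and 150 counts in treated 2. In CPM these are 0.314, 0.136, 1.73 and 9.03, with treated 2 5.23-fold above treated 1. Counted over both libraries of a group, the ratio was 23.2 (exact 95% interval 11.02 to 58.4, counting error only). The log2 fold change was 4.52 with a standard error of 1.02 (adjusted p = 0.138 in edgeR's quasi-likelihood test). It was 2.88 without treated 2, 5.26 without treated 1 and 5.22 without saline 1.

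**Figure D2:**
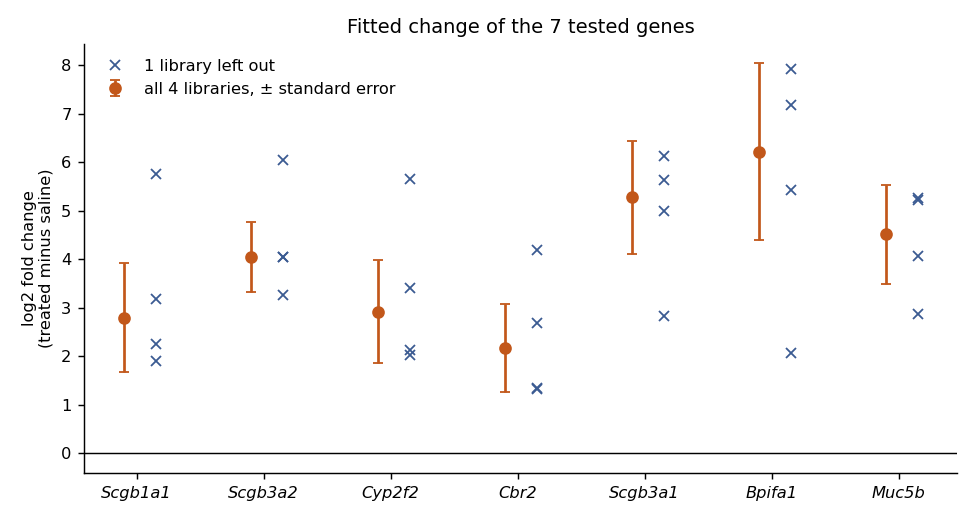
Log2 fold change (treated minus saline) of the 7 tested genes from edgeR, as circles with bars of 1 standard error, beside the values when each library was left out in turn (crosses). All values lie above 0, from 1.33 for Cbr2 to 7.93 for Bpifa1. The crosses could not fall below 0, because the groups of each gene do not overlap with every library kept. Scgb3a1, Bpifa1 and Muc5b have their lowest value without treated 2 (2.82, 2.07 and 2.88).

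The order of the treated libraries therefore split the 8 genes along the airway, although Scgb3a2 was nearly level between them (50.4 and 49.6 CPM). The saline libraries gave no such split, saline 1 being higher for every gene but Bpifa1. Scgb1a1, Cyp2f2, Cbr2 and Scgb3a2 summed to 1328 CPM in saline 1, 105 CPM in saline 2, 6340 CPM in treated 1 and 3234 CPM in treated 2. Scgb3a1, Bpifa1, Reg3g and Muc5b summed to 3.07, 2.52, 18.4 and 248 CPM in the same order. The 4 genes of the larger airways made up 7.12% of the counts of the 8 genes in treated 2 (95% Wilson interval 6.91 to 7.33%) and 0.289% in treated 1 (0.259 to 0.322%). In the saline libraries they made up 0.231% (0.175 to 0.305%) and 2.34% (1.7 to 3.21%). The make-up of the secretory transcripts thus overlapped between saline and treated. This grouping follows where the genes are known to be made, less surely so for Reg3g. It was formed with these values in view, so the split is a description without a test.

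Levels were compared between genes as CPM per kilobase of gene length. Scgb1a1 was the highest in every library, at 93%, 86.2%, 93.8% and 90.6% of the summed CPM per kilobase of the 8 genes in saline 1, saline 2, treated 1 and treated 2. Cbr2 came next in saline 1, saline 2 and treated 1 (5.51%, 10.4% and 4.2%), whereas in treated 2 it was Scgb3a1 (3.68%). Muc5b was the lowest throughout. The ratio of Scgb1a1 to Cyp2f2 per kilobase was the steadiest, at 83.5 in saline 1, 70.7 in saline 2, 69.9 in treated 1 and 90.0 in treated 2, over libraries in which Scgb1a1 itself ranged from 74.7 to 5305 CPM. Between Scgb1a1 and Scgb3a1 the ratio went from 559 in saline 1 to 24.6 in treated 2. Scgb1a1 was 386-fold and 184-fold above Scgb3a2 in the saline libraries and 194.5-fold and 104-fold above it in the treated libraries.

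**Figure D3:**
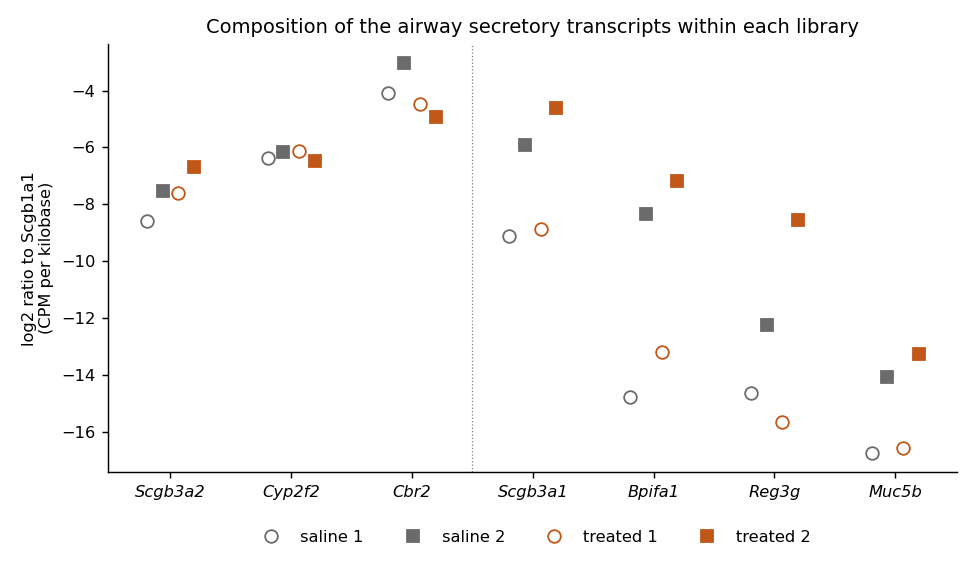
Log2 ratio of each gene to Scgb1a1 (both as CPM per kilobase) within each library, with genes of the small airways left of the dotted line and genes of the larger airways right of it. Cyp2f2 keeps within -6.49 to -6.13 in all 4 libraries, whereas Scgb3a1 spans -9.13 to -4.62. The 4 genes on the right are highest in treated 2, and so is Scgb3a2 on the left (-6.70).

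The sequence before the start sites is shown because the genes lay higher together in the treated libraries. Start-site windows of 300 bases were at hand for 5 of the 8 genes (Scgb3a1, Cyp2f2, Bpifa1, Reg3g and Cbr2) from RefSeq on GRCm38.p6. The 250 bases upstream of the start are shown, 5′ to 3′ on the gene's strand, for the club cell enzyme gene Cyp2f2 (chr7:27119705-27119954, plus strand) and for the pair that stood out in treated 2, Bpifa1 (chr2:154142630-154142879, plus strand) and Reg3g (chr6:78468875-78469124, minus strand). Capitals mark the letters of 3 motifs on either strand, the core TCAAG bound by NKX2-1, the forkhead core TATTTAC and the TATA box TATAAA.
Cyp2f2: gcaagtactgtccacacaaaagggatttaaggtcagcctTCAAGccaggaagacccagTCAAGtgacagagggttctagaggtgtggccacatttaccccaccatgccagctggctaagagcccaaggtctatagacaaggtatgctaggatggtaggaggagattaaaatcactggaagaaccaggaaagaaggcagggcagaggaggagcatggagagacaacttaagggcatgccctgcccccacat
Bpifa1: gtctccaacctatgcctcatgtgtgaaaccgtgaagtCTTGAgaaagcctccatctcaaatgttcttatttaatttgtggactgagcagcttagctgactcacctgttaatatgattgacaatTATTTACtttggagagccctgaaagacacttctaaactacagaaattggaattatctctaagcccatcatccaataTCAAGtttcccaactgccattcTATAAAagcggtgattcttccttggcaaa
Reg3g: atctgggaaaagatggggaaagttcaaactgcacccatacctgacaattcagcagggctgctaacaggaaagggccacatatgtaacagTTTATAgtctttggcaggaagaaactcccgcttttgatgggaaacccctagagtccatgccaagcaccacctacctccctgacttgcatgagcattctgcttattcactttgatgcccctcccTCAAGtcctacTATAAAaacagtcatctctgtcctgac
The letters TATAAA stood 29 to 24 bases before the start of Bpifa1 and 27 to 22 bases before that of Reg3g, and were absent from the windows of Cyp2f2, Scgb3a1 and Cbr2. They occur in 13.6% of all 32851 windows. TCAAG was present in 5 of the 5 windows, at 2 places upstream of Cyp2f2, but such a short core is found in 40.7% of all windows. TATTTAC, present in 3.04% of windows, was seen in that of Bpifa1 alone, and neither the forkhead core TGTTTAC (3.65%) nor TTGCNNAA, a form of the C/EBP site (10.8%), was seen in any of the 5. These matches are letters in a window and say nothing of binding.

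Other genes of club and secretory cells were mostly higher in the treated libraries as well, by smaller steps. Of 16 such genes, 13 were higher in both treated libraries and 0 lower in both. Among those that passed the filter, 12 of 13 were higher and 0 lower in both, against 27.4% and 27.8% of all genes tested. Of the 13 tested, 10 had an unadjusted p under 0.05 with treated higher and 0 with treated lower, where 9.21% and 12% of all genes did, and their median log2 fold change was 1.89 (edgeR), against 4.05 for the 7 tested secretory genes above. Scgb1c1 and Lypd2, 2 of the 10, passed the filter only through the treated libraries. Among the most abundant of them, Retnla, a resistin-like protein of macrophages and airway epithelium, measured 10.4, 0.477, 103 and 71.5 CPM in saline 1, saline 2, treated 1 and treated 2. Hp, the haemoglobin-binding protein haptoglobin, measured 123, 53.6, 279 and 173 CPM. Wfdc2, a protease inhibitor family protein of secretory epithelia, was high in all libraries (339, 493, 525 and 645 CPM), with a log2 fold change of 0.49. Upk3a was at 0 in all 4 libraries. Retnla thus kept the order seen for Scgb1a1, and Wfdc2 did not.

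Enzymes of foreign-compound metabolism, the other hallmark of the club cell beside Cyp2f2, were measured for 26 genes. In both treated libraries 18 were higher and 0 were lower. Among those that passed the filter, 17 of 25 were higher and 0 lower in both, against 27.4% and 27.8% of all genes tested. Of the 25 tested, 15 had an unadjusted p under 0.05 with treated higher and 0 with treated lower, against 9.21% and 12%, and the median log2 fold change was 0.73 (edgeR). Cyp2a5 and Sult1d1, 2 of the 15, passed the filter only through the treated libraries. Aldh1a1, a retinaldehyde dehydrogenase, measured 35.9, 16.7, 192 and 59.1 CPM in the same order of libraries, and its log2 fold change was 2.25 (adjusted p = 0.155 in edgeR's quasi-likelihood test). Por, the reductase that serves all microsomal P450 enzymes, was level at 130, 129, 138 and 129 CPM, with a log2 fold change of 0.04. Gstp1, a glutathione transferase of many cell types, measured 139, 177, 204 and 198 CPM.

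Mucous and gland genes were scarce. Of 18, Tff3 and Azgp1 were at 0 in every library, and Muc5ac, the other gel-forming airway mucin beside Muc5b, reached at most 0.301 CPM. Only 6 passed the filter, of which 4 had an unadjusted p under 0.05 with treated higher and 1, Creb3l1, with treated lower, against 9.21% and 12% of all genes tested (edgeR). Muc20, 1 of the 4, passed the filter only through the treated libraries. Muc1, a membrane mucin of many epithelia, measured 31.8, 19.8, 119 and 67.7 CPM, a log2 fold change of 1.86 (adjusted p = 0.138 in edgeR's quasi-likelihood test). Creb3l1, a transcription factor of secretory pathways, measured 21.6, 12.5, 10.5 and 8.24 CPM. The scarcity of goblet cell products went along with the low counts of Muc5b.

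The nearest relatives of these genes were mostly without counts. Of 21 further secretoglobin, BPI fold and Reg family genes, 15 were at 0 in all 4 libraries, among them Reg3a, Reg3b and Reg3d, close kin of Reg3g. Bpifb1, which is made beside Bpifa1 in the larger airways, measured 0.314, 0.477, 0.691 and 15.4 CPM, so that treated 2 stood apart as it did for Bpifa1 and Reg3g. Bpifb4 followed neither pattern, with 14.1 CPM in saline 2 and 11.1 CPM in treated 2, and 0.815 and 1.04 CPM in the other 2 libraries. Of 18 airway defence genes of wider expression, 4 were higher in both treated libraries and 0 lower in both. Among those that passed the filter, 3 of 11 were higher and 0 lower in both, where 27.4% and 27.8% of all genes tested were. Of the 11 tested, 4 had an unadjusted p under 0.05 with treated higher, where 9.21% of all genes did (edgeR). Among the most abundant, Slpi, a secreted protease inhibitor, was at 131.5, 161, 250 and 272 CPM and Lcn2, which binds bacterial siderophores, was at 520, 402, 512 and 414 CPM.

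Transcription factors that act in airway epithelium were measured for 16 genes, of which 8 were higher and 2 lower in both treated libraries, against 27.4% and 27.8% of all genes tested. An unadjusted p under 0.05 was found for 5 with treated higher and 2 with treated lower (edgeR), where 9.21% and 12% of all genes tested had one. Sox2, 1 of the 5, passed the filter only through the treated libraries. The most abundant of them, Notch2, a receptor that holds club cells in their fate and is widespread in other cells, measured 248, 249, 133 and 136 CPM (log2 fold change -0.89, adjusted p = 0.138 in edgeR's quasi-likelihood test). Nkx2-1, the lung lineage factor whose core motif was searched above, was looked up after its values had been seen and measured 6.96, 1.98, 25.5 and 11.3 CPM, in the order of Scgb1a1.

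Markers of ciliated and alveolar cells were mostly higher in the treated libraries along with the secretory genes. Among all genes tested, 27.4% were higher and 27.8% were lower in both treated libraries. Of 25 markers of ciliated cells, the neighbours of club cells in the airway lining, 24 were higher in both treated libraries and 0 lower in both, and their summed level was 22.1 and 10.6 CPM in the saline libraries and 103 and 58.8 CPM in the treated libraries. Of the 20 tested, all 20 were higher in both treated libraries. An unadjusted p under 0.05 with treated higher was found for 13 (edgeR), where 9.21% of all genes tested had one. However, 13 of the 20 also passed the filter only through the treated libraries. Foxj1, the master factor of motile cilia, measured 4.08, 1.16, 10.7 and 7.58 CPM. Of 12 markers of the alveolar type 2 cell, which makes surfactant, 10 were higher in both treated libraries and 2, Abca3 and Etv5, were lower in both, and their summed level was 1970, 635, 8846 and 3253 CPM. Of 11 markers of the flat alveolar type 1 cell, 8 were higher in both, 0 were lower in both and 3 overlapped. Their sums were 732, 500, 1538 and 905 CPM. Sftpc, the surfactant protein particular to the alveolar type 2 cell, measured 1020, 176, 6153 and 2092 CPM. The part of these cell types in the level of the secretory genes was not tested.

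The small-airway genes were also set against the alveolar markers. The sum of Scgb1a1, Scgb3a2, Cyp2f2 and Cbr2 was 0.674 and 0.165 times the summed alveolar type 2 markers in the saline libraries and 0.717 and 0.994 times in the treated libraries, so the groups did not overlap, although saline 1 lay close to treated 1. The ratio of Scgb1a1 to Sftpc counts was 1.07 in saline 1, 0.424 in saline 2, 0.862 in treated 1 and 1.34 in treated 2, so that the treated pair lay on both sides of saline 1. Ciliated markers amounted to 1.66% of that small-airway sum in saline 1, 1.63% in treated 1 and 1.82% in treated 2, and to 10% in saline 2, the library with the least of each.

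Markers of other compartments were counted in the same way. Among all genes tested, 27.4% were higher and 27.8% were lower in both treated libraries, a share to set beside the tested markers only. Of 9 basal cell markers 1 was higher and 2 were lower in both treated libraries, as among the 7 tested. The sum of the 9 was 71.4, 65.5, 66.6 and 61.3 CPM. Of 7 smooth muscle markers 2 were higher and 0 lower in both, with sums between 179 and 203 CPM. Of 14 cartilage markers, of which only 2 were tested, 0 were higher and 1, the tested Sox9, was lower in both. Sox9 measured 64.2, 73.6, 38.6 and 48.3 CPM, which is nearly all of that list's sum. Sox9 is also made in other epithelia. Of the rest, 6 (Acan, Matn1, Col9a1, Col9a2, Cnmd and Snorc) were at 0 in every library. Col2a1 had 4 counts in treated 2 and 0 elsewhere, and Matn3 had 3, 2, 1 and 8 counts. Col9a3 had 3, 5, 9 and 2 counts, Col11a2 had 10, 15, 23 and 10, and Comp had 4, 7, 8 and 10. Hapln1 and Ucma had at most 4 counts in any library. Of 10 markers of rare airway cells 1 was higher and 2 were lower in both, and of the 5 tested 1 was higher and 1 lower. Of 8 genes of neck tissue (thyroid and squamous lining) 0 were higher and 1 was lower in both. That 1 was Krt4, untested, with 3, 5, 0 and 0 counts, and of the 2 tested 0 were higher and 0 lower. Of 8 cardiac muscle genes 3 were higher and 0 lower in both, all 3 being among the 4 tested. Among 12 epithelial markers of the tumour, 3 were higher and 1 was lower in both, and their sum of 3224, 3525, 2911 and 4002 CPM overlapped between the groups. This list includes Krt8 and Krt18, which lung epithelium shares, so its sum does not measure tumour content alone.

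**Figure D4:**
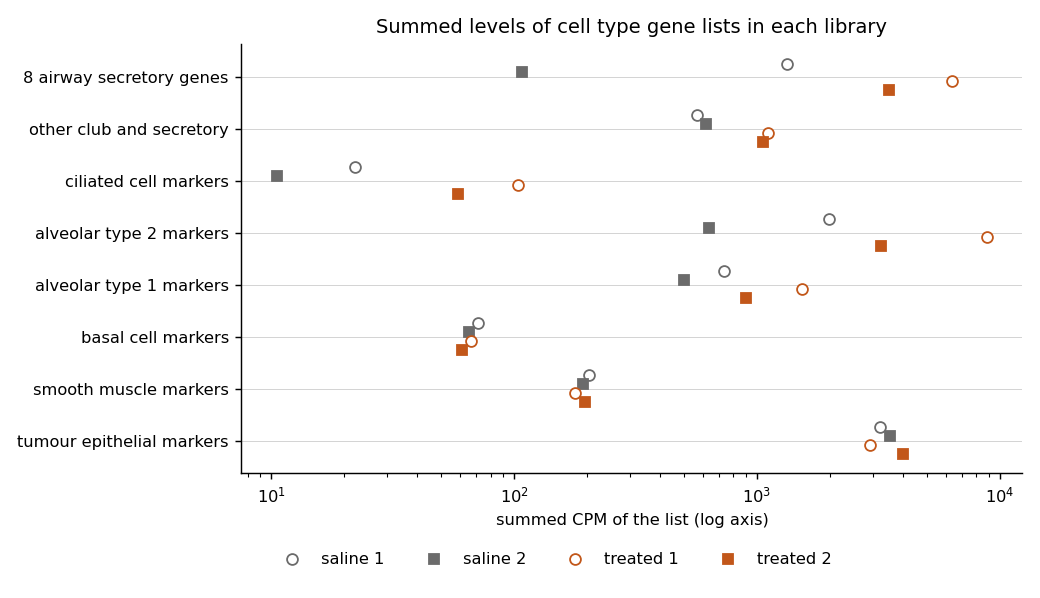
Summed CPM (log axis) of the 8 airway secretory genes and of 7 gene lists in each library, grey for saline and orange for cmLumiOpto/PARPi, open circles for library 1 and filled squares for library 2. The sums of the 8 genes and of the ciliated and both alveolar lists are higher in both treated libraries, as is the sum of other club and secretory genes. The basal, smooth muscle and tumour epithelial sums overlap, the last including keratins that lung epithelium shares.

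Of 14092 candidate genes, the 10 whose level over the 4 libraries was most like the mean of the 7 tested secretory genes were AU040972, Cyp2a5, Spag6l, Ccdc153, Lypd2, Gpx2, Pigr, Dnah9, Tmem212 and AU021092. Likeness was the root mean square distance between centred log2 CPM values over the 4 libraries, and it ran from 0.256 for AU040972 to 0.741 for AU021092. The secretory genes themselves lay at 0.569 (Scgb3a2) to 1.93 (Bpifa1) from their own mean. Cyp2a5, a P450 of airway and liver, measured 0.376, 0.136, 4.38 and 11.4 CPM. Pigr, the receptor that carries IgA across epithelia, measured 3.45, 0.750, 18.6 and 11.9 CPM. Dnah9, at 0.627, 0, 2.07 and 1.93 CPM, belongs to the ciliated cell markers above, so the profile was not particular to secretory genes. AU040972, Cyp2a5, Spag6l and Lypd2 lay below the filter's level of 0.614 CPM in both saline libraries. With 4 libraries many patterns can look alike, so this order is a description.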

How the data were processed

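Total RNA from 4 samples was enriched for poly-A RNA and sequenced on an Illumina HiSeq X instrument, and the kit is not stated to keep strand. The authors mapped the reads with HISAT2 and deposited raw read counts per gene, not normalized, with the position, length and type of each gene. The tool that counted reads is not given in the sources used here. The methods name GRCm38 and the submitters' processing notes name mm39. Of the 8 genes, 0 had the position that the GRCm38 annotation GENCODE M21 gives and 8 had the same span, so positions of genes are quoted from the deposited table and only promoter windows are on GRCm38.p6.

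The 8 genes, the gene lists and the tests were chosen with earlier results of these data known. Counts were tested in R 4.3.3 with edgeR 4.0.16 (TMM factors, filterByExpr with a minimum count of 10, glmQLFit, glmQLFTest, Benjamini-Hochberg adjustment over the 15167 genes tested, threshold 0.05). The saline and cmLumiOpto/PARPi libraries were compared without covariates. CPM were computed with the TMM factors, and log2 CPM with a prior count of 2. The script was tested on simulated data. DESeq2 1.42.0, other scalings, no filter, gene length offsets, a replicate block and leaving out each library were alternatives. Genes described above were the 8, some of the up to 4 most abundant genes of each list and the 10 genes most like the 8. Any other was chosen after its values were seen. Among the abundant genes left out, Muc16, Saa3, C3, Gsto1, Cebpb and Klf5 overlapped between the groups. Others, such as Nupr1, Fcgbp and Hes1, were higher in both treated libraries. An exact permutation test of 2 libraries against 2 cannot give a two-sided p under 0.333 and was not used. Depth was 15263375 to 16755228 counts, so 3 counts correspond to 0.173 to 0.204 CPM. Counts of libraries within a group differed by more than sampling noise (chi-square per degree of freedom 25.2 for saline and 45.4 for treated). No library was thus a second sequencing of the other in its group. Separate preparations from the same mouse cannot be told from this value. Promoter windows were searched with Python 3.11.15.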

Additional observations from a re-analysis of the deposited data

How the results depend on the processing

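The direction of the 7 tested secretory genes was positive under every alternative run. Over the libraries left out in turn, their log2 fold changes were 1.33 to 7.93. All 7 (8 of 8 without a filter) had groups that did not overlap wherever that was counted. No sign could turn and no overlap could arise when a library was left out, because these groups were already separate with every library kept. Those runs are thus no test of direction. How many passed an adjusted p of 0.05 depended on the test. In edgeR it was 0 of 7 with 0 of all genes with TMM, RLE or upper quartile scaling, without the legacy option and with gene length offsets. Without a filter on low counts it was 8 of 8 with 2000 of 25435 genes (7.86%). That run gave Scgb1a1 a standard error of 0.22, against 1.13 with the filter, although its saline libraries differed 14.6-fold. Its count of genes passed thus rests on much smaller error estimates. With the DESeq2 Wald test it was 4 of 7 with 981 genes (7.32%). A replicate block on the numbers in the labels gave 7 of 7 with 1822 genes (12%), and the replicate block with gene length offsets 7 of 7 with 920 genes (6.07%). The labels do not say that a number marks anything shared, and with 2 pairs the samples were not treated as paired. The difference between libraries 1 and 2 correlated between the groups across genes (Pearson r = 0.357, Spearman rho = 0.298 over 15167 genes, which are not independent replicates). Leaving out a library gave 0 to 1 of the 7 and 0 to 2 genes. The 1 was Scgb3a2 without saline 1 (adjusted p = 0.0196) and Scgb3a1 without treated 1 (adjusted p = 0.0127), both in edgeR, with the lone library assumed to vary like the other group. With gene length offsets the log2 fold changes of the 7 genes were 1.90 to 5.96, lower for 6 and higher for Muc5b (4.91 against 4.52). The cause of these shifts was not tested. Depth limits Reg3g, Muc5b and Bpifa1, which had at most 11 counts in a saline library.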
